A study of Mus musculus with 6 samples.

Results

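Kinesins are motor proteins that walk along, or take apart, microtubules with energy from ATP. Here the kinesin genes were described in dysplastic stem cells of Meta4, a single mouse line of dysplastic epithelial organoids, from which the cells had been isolated by FACS. The members were all gene rows whose symbol has the form Kif or Kifc, a number and at most 1 letter. That gave 41 of 23420 gene rows, and 35 of them had a mean of 1 or more CPM (read counts scaled to a library total of 1000000 gene reads) over the 6 libraries. Polyadenylated RNA was sequenced from 3 libraries of cells labelled DP-DSCs and 3 of cells labelled TP-DSCs. Both groups share the organoid line, and neither label names an added treatment or allele. By what is known of the study, and on no label, DP stands for double positive and TP for triple positive cells in the surface marker sort. The labels call the samples independent but name no separate cultures. The p-values given here therefore reflect the spread among these 6 samples alone, and part of it may be technical.

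Kinesins differ in their cargo. Mitotic kinesins build and shorten the spindle, push chromosome arms and organise the midzone where a dividing cell is cut apart. Many of their genes are transcribed mainly in late G2 phase and mitosis, through a promoter element called the cell cycle genes homology region (CHR), often found near CCAAT boxes. Transport kinesins carry vesicles, mitochondria and other cargo in cells at any stage of the cycle, and in epithelia they supply the apical and basal membranes and the cilium.

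The 35 reported genes fell into 13 mitotic, 13 transport and 9 other kinesins. The other 6 members were below 1 CPM. Kif2b, a mitotic kinesin, had no read in any library, and Kif5a, Kif6, Kif17, Kif26a and Kif27 had reads in DP-DSCs only. The threshold lay between Kif17, with a mean of 0.764 CPM, and Kif7, with 2.79 CPM. The class of each gene was assigned from its known role, and the files hold no such label.

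Promoter letters are shown for the 4 mitotic genes whose TP-DSCs values stood furthest above the DP-DSCs values, with Kif5c, the transport gene of 1 CPM or more with the smallest p, for contrast. Each stretch runs from 100 bases before the RefSeq transcription start to 30 bases after it, on the gene's strand, in build GRCm38.p6. Capitals mark the CHR letters TTTGAA or TTCGAA and the CCAAT letters, in either orientation.
Kif11 (chr19:37376282-37376411, plus strand): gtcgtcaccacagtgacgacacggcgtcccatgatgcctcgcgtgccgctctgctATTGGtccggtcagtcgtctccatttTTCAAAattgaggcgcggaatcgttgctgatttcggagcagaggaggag
Kif15 (chr9:122950981-122951110, plus strand): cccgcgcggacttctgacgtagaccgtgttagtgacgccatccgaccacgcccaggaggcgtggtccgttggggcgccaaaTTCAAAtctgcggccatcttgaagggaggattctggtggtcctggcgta
Kif4 (chrX:100625965-100626094, plus strand): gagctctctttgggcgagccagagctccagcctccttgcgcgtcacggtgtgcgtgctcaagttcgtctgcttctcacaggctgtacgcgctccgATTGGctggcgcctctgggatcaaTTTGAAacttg
Kif20b (chr19:34922258-34922387, plus strand): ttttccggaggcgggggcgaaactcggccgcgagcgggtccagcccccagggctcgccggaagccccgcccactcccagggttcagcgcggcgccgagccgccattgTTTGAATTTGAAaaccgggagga
Kif5c (chr2:49619186-49619315, plus strand): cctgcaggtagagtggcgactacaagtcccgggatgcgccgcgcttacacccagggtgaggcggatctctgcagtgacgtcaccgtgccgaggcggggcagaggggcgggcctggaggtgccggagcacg

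In Kif11 and in Kif15 the CHR letters began 19 bases before the start. In Kif4 they began at base 20 after it, and in Kif20b 2 adjacent copies began at bases 8 and 14. Kif11 and Kif4 also held the CCAAT letters in this stretch. The Kif5c stretch held neither motif, although TP-DSCs were higher without overlap for this gene. The CHR letters also began 17 bases before the start in Kif22, and at bases 2, 3 and 4 after it in Kifc1, Kif23 and Kif18b. These genes overlapped between groups. For Kif11, Kif20b, Kif23 and Kif5c the 20 bases from the RefSeq start were in no annotated transcript of the gene, so positions there are less certain. RefSeq windows of 300 bases, from 250 before to 50 after the start, were at hand for 33 of the 41 members. Among members of 1 CPM or more with a window, the CHR letters stood in 11 of 12 mitotic genes (91.7%), in 1 of 9 transport genes (11.1%) and in 2 of 7 other kinesins (28.6%). With the members below 1 CPM they stood in 11 of 13 mitotic genes, 1 of 10 transport genes and 3 of 10 others. They stood in 21.7% of all 27025 genes with a window and in 16.1% of the 8921 tested genes with one. Within 50 bases of the start the shares were 75% of mitotic and 11.1% of transport members of 1 CPM or more, beside 4.28% of tested genes. Kif18a and Kif2b, which had no read, were the mitotic members without the letters, and Kif1a, a carrier of synaptic vesicle precursors, the transport member with them. The CCAAT letters were in 8 of these 12 mitotic genes (66.7%), 3 of these 9 transport genes (33.3%) and 43.3% of tested genes with a window. These matches describe letters, and binding of any factor was not measured.

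Transport kinesins took most kinesin reads in every library. Their summed level was 1225, 1295 and 1097 CPM in DP-DSCs replicates 1, 2 and 3, and 1291, 1441 and 1463 CPM in TP-DSCs replicates 1, 2 and 3. The mitotic kinesins summed to 166.4, 464.3 and 251.1 CPM in DP-DSCs and 324.8, 644.7 and 523.4 CPM in TP-DSCs. The DP-DSCs mean of the mitotic sum was 293.9 ± 153.5 CPM (SD, n = 3), and the TP-DSCs mean was 497.6 ± 161.5 CPM (SD, n = 3). DP-DSCs replicate 2 lay above TP-DSCs replicate 1, so the groups overlapped. For the transport sum these means were 1206 ± 100.5 and 1398 ± 93.75 CPM (SD, n = 3 per group), also with overlap. The mitotic sum over the transport sum was 0.136, 0.358 and 0.229 in DP-DSCs and 0.252, 0.447 and 0.358 in TP-DSCs. In bulk RNA, more dividing cells and more transcript per dividing cell cannot be told apart.

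**Figure D1:**
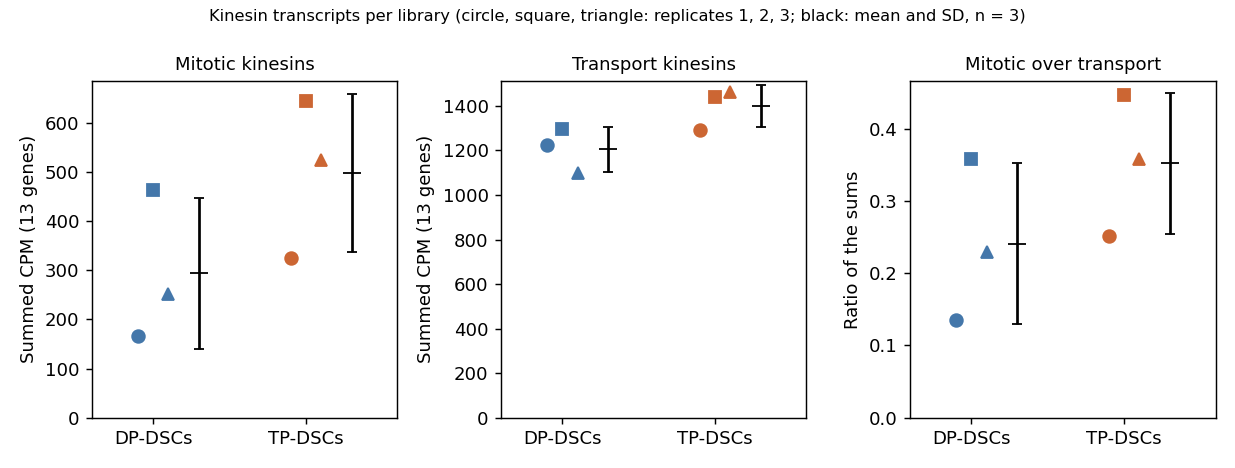
Summed CPM of 13 mitotic kinesins (left), of 13 transport kinesins (middle) and their ratio (right) in each DP-DSCs and TP-DSCs library, with mean and SD (n = 3). The groups overlap in all 3 panels, with mitotic means of 293.9 and 497.6 CPM.

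Per kilobase of transcript, the order was led by Kif5b, the ubiquitous heavy chain of kinesin-1, with a mean level over the 6 libraries of 62.9 CPM per kb. Kif1c, a kinesin-3 that carries vesicles and integrins, followed with 54.1, and Kifc3, a minus-end motor of epithelial cells linked to adherens junctions, with 33.7 CPM per kb. Library ranges of these neighbours overlapped: 51.3 to 78.8 for Kif5b, 45.8 to 65.3 for Kif1c and 28.3 to 46.7 CPM per kb for Kifc3. The most abundant mitotic kinesin on this scale was Kifc1 at 17.4 CPM per kb, before Kif22 and Kif23 at 15.7 each. Transport kinesins made up 49.3 to 68.4% of the summed kinesin level per kilobase, the lowest share being that of TP-DSCs replicate 2. Kif5b and Kif1c together made up 53.6 to 61.1% of the transport sum in CPM.

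The comparison of TP-DSCs with DP-DSCs placed 12 of the 13 mitotic kinesins above 0 in edgeR's log2 fold change, where positive values mean higher in TP-DSCs, with a median of 0.59 and a range from -0.00 to 1.76. Of the 13 transport kinesins 11 lay above 0, with a median of 0.26 and a range from -0.21 to 1.01. Over all 11925 tested genes the median was -0.02, with 5752 genes above 0. No kinesin passed an adjusted p of 0.05 in edgeR, and neither did any other gene (0% of 11925). The spread between replicates was wide, with a coefficient of variation of 0.75 from edgeR's common dispersion. The absence of calls therefore does not show an absence of differences. At an unadjusted p under 0.05, 4 of 13 mitotic and 1 of 13 transport kinesins were higher in TP-DSCs, beside 1.43% of all tested genes. Without DP-DSCs replicate 1, or without DP-DSCs replicate 3, Kif20b and Kif4 were the 2 kinesins left at that level, and without TP-DSCs replicate 2 they were Kif20b, Kif4 and Kif5c. Without TP-DSCs replicate 3, Kif15 was lost. Kif7 and Kif9, with no read in the TP-DSCs libraries left, then entered as lower in TP-DSCs. Kif5c, the 1 transport gene, was lost with the library-name prefix as a block, within prefix 4140 alone, with upper-quartile factors and with no filter, while the 4 mitotic genes remained. The libraries of both groups did not overlap, with TP-DSCs higher, for 3 mitotic and 1 transport member, beside 3.87% of all tested genes. The difference between the 2 class medians was not tested.

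**Figure D2:**
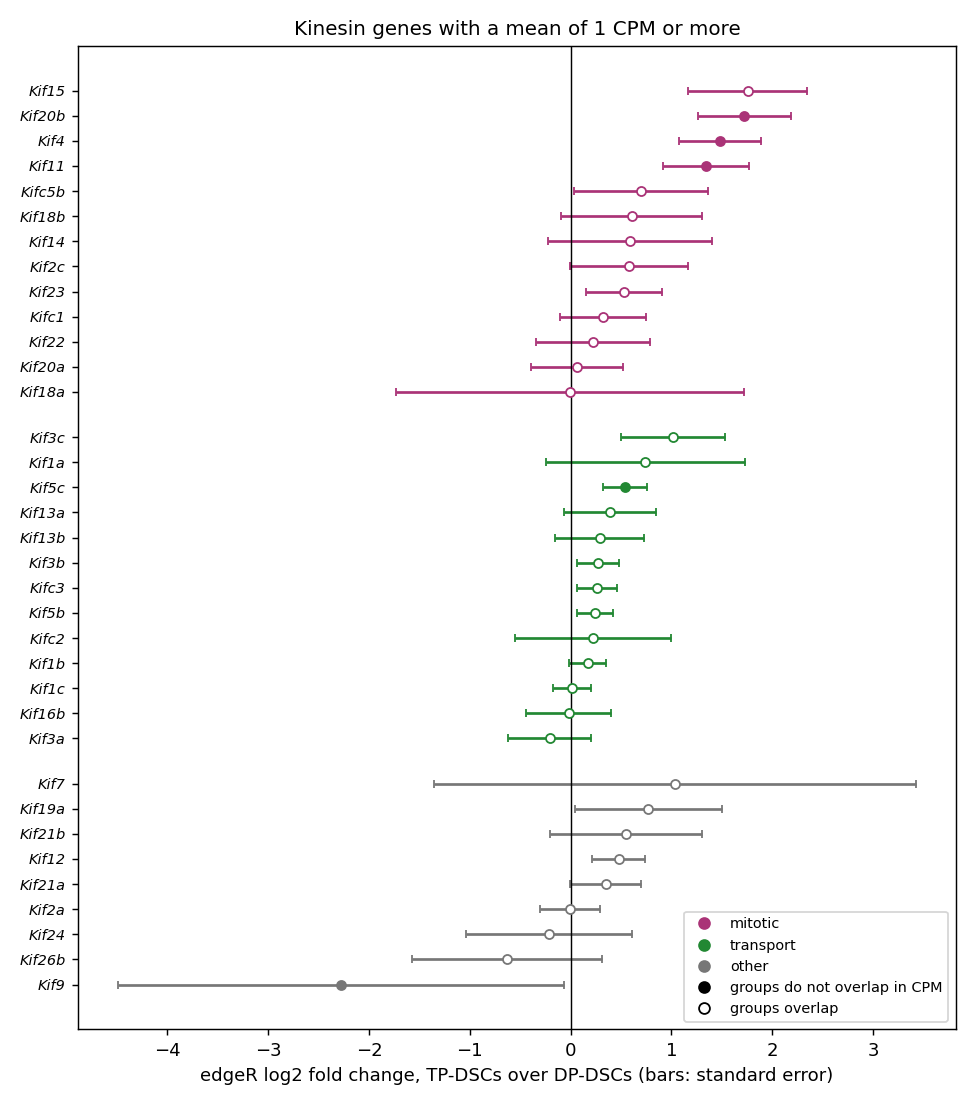
edgeR log2 fold change of TP-DSCs over DP-DSCs with its standard error (bars) for the 35 kinesins with a mean of 1 CPM or more, by class; filled points mark genes whose groups do not overlap in CPM. Kif15, Kif20b, Kif4 and Kif11 lie between 1.34 and 1.76, and the transport kinesins between -0.21 and 1.01.

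DESeq2's calls depended on its settings. On the genes edgeR tested, it called none of the 35 kinesins at an adjusted p of 0.05, beside 0.0605% of genes called higher. On every gene with a read it called Kif20b and Kif4 higher (adjusted p = 0.0338 and 0.0496), beside 0.272% of genes. With a local dispersion trend on the first gene set it called Kif20b, Kif4, Kif11 and Kif15 higher (adjusted p = 0.00838, 0.0149, 0.0219 and 0.0232), beside 0.45% of genes. Over all alternatives the adjusted p ran from 0.00838 to 0.658 for Kif20b and from 0.0149 to 0.708 for Kif4. It ran from 0.0219 to 1 for Kif11 and from 0.0232 to 1 for Kif15.

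The motors that push the spindle poles apart are Kif11, the tetrameric motor also known as Eg5, and Kif15, which helps to keep the poles separate. Kif11 stood at 18.4, 40.6 and 24.1 CPM in DP-DSCs and at 43.8, 114.5 and 53.8 CPM in TP-DSCs. The groups did not overlap, but DP-DSCs replicate 2 came close to TP-DSCs replicate 1. The log2 fold change of Kif11 was 1.34 ± 0.43 (SE; edgeR adjusted p = 0.388), and 0.85 without TP-DSCs replicate 2. Kif15 stood at 6.44, 18.0 and 10.2 CPM in DP-DSCs and at 14.8, 51.3 and 53.0 CPM in TP-DSCs. TP-DSCs replicate 1 lay below DP-DSCs replicate 2, so the groups overlapped, and the log2 fold change was 1.76 ± 0.59 (SE; edgeR adjusted p = 0.471).

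The chromokinesins Kif4 and Kif22 bind chromosomes, and Kif4 also shapes the midzone of the spindle. Kif4 stood at 11.2, 28.6 and 17.4 CPM in DP-DSCs and at 34.0, 58.2 and 68.8 CPM in TP-DSCs, without overlap. Its log2 fold change was 1.48 ± 0.41 (SE; edgeR adjusted p = 0.221). Of its exon bases 15.1% overlap Pdzd11, which stood at 30.8, 28.8 and 31.5 CPM in DP-DSCs and at 42.1, 66.4 and 24.0 CPM in TP-DSCs. The part of that overlap in the Kif4 value was not tested. Kif22 stood at 15.4, 48.9 and 28.1 CPM in DP-DSCs and at 28.2, 61.6 and 17.5 CPM in TP-DSCs, with broad overlap. Its log2 fold change was 0.22 ± 0.57 (SE; edgeR adjusted p = 0.999).

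Of the motors of cytokinesis, Kif20b stood apart in TP-DSCs. Kif20b, which acts at the midbody late in division, was at 13.9, 18.7 and 11.8 CPM in DP-DSCs and at 23.3, 78.7 and 48.0 CPM in TP-DSCs. The groups did not overlap, and the log2 fold change was 1.72 ± 0.46 (SE; edgeR adjusted p = 0.197). Kif20a, which brings Aurora B and other regulators to the midzone, was at 24.8, 88.2 and 42.8 CPM in DP-DSCs and at 49.9, 37.7 and 73.6 CPM in TP-DSCs. Its highest library was a DP-DSCs one, and the log2 fold change was 0.06 ± 0.46 (SE; edgeR adjusted p = 0.999). Of the exon bases of Kif20a 29.3% overlap Cdc23.

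Kif23, the motor subunit of the centralspindlin complex, was at 23.2, 68.1 and 40.0 CPM in DP-DSCs and at 49.5, 60.4 and 79.3 CPM in TP-DSCs. Kif14, which recruits citron kinase to the midbody, was at 5.15, 18.5 and 5.66 CPM in DP-DSCs and at 5.97, 23.3 and 15.1 CPM in TP-DSCs. Both overlapped between groups, with log2 fold changes of 0.53 ± 0.37 for Kif23 and 0.59 ± 0.81 for Kif14 (SE). Kif23 ran from 0.21 without DP-DSCs replicate 1 to 0.93 without DP-DSCs replicate 2, and Kif14 from 0.13 without TP-DSCs replicate 2 to 1.35 without DP-DSCs replicate 2.

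Motors that shorten microtubules or damp chromosome movement did not separate the groups. Kif2c, a depolymerase at centromeres, was at 9.17, 23.7 and 15.6 CPM in DP-DSCs and at 11.3, 38.9 and 23.1 CPM in TP-DSCs. Kif18b, which trims astral microtubules, was at 6.23, 27.1 and 9.21 CPM in DP-DSCs and at 10.1, 26.9 and 28.0 CPM in TP-DSCs. Both overlapped, with log2 fold changes of 0.58 ± 0.59 for Kif2c and 0.61 ± 0.70 for Kif18b (SE). Kif2c ran from 0.10 without TP-DSCs replicate 2 to 0.89 without DP-DSCs replicate 2, and Kif18b from 0.24 without DP-DSCs replicate 1 to 1.40 without DP-DSCs replicate 2. Kif18a, which aligns chromosomes at the spindle equator, was at 4.85, 8.54 and 7.51 CPM in DP-DSCs and at 10.8, 9.52 and 0 CPM in TP-DSCs. Absence of reads at this level was common in the library without them: of genes with 4 to 8 CPM in DP-DSCs, 34.2% had no read in TP-DSCs replicate 3. In TP-DSCs replicates 1 and 2 that share was 24.4 and 38% and in any DP-DSCs library at most 0.74%. These genes were chosen by their DP-DSCs mean, which favours reads in DP-DSCs, so the shares of the groups are not on an equal footing. How much of the difference comes from that choice was not tested.

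The minus-end motors Kifc1, which bundles spindle microtubules and clusters extra centrosomes, and Kifc5b, its close copy, share many bases. Of their transcript 50-mers, 47.6% of those of Kifc1 occur in another gene and 42.1% of those of Kifc5b, so the split of reads between them is uncertain. Kifc1 was at 19.7, 58.6 and 30.6 CPM in DP-DSCs and at 28.4, 55.2 and 53.3 CPM in TP-DSCs. Kifc5b was at 8.04, 16.7 and 8.07 CPM in DP-DSCs and at 14.8, 28.4 and 9.91 CPM in TP-DSCs. Their sum was 27.7, 75.4 and 38.7 CPM in DP-DSCs and 43.2, 83.6 and 63.2 CPM in TP-DSCs, with overlap.

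**Figure D3:**
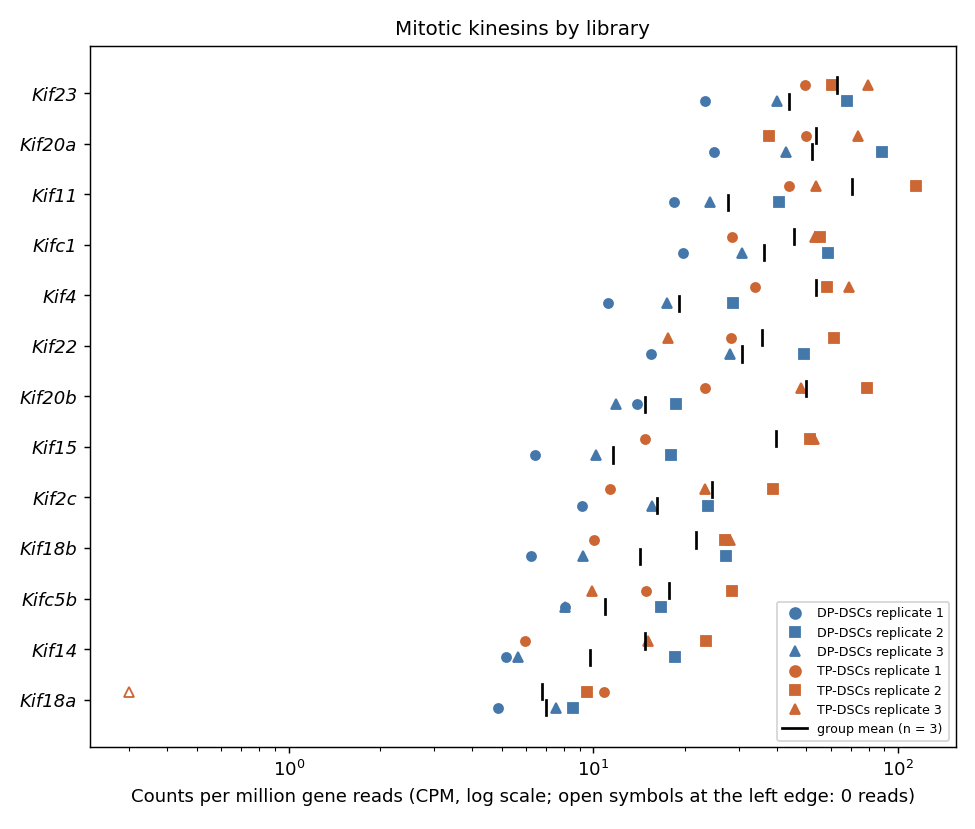
CPM (log axis) of the 13 mitotic kinesins in each library, with group means (n = 3); the open triangle marks Kif18a, with 0 reads in TP-DSCs replicate 3. Kif11, Kif4 and Kif20b show all TP-DSCs libraries above all DP-DSCs libraries, and DP-DSCs replicate 2 is the highest DP-DSCs library for all 13 genes.

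Libraries of a group differed in the mitotic class as a whole. DP-DSCs replicate 2 was the highest of its group for 13 of 13 mitotic kinesins and replicate 1 the lowest for 12 of 13. Among TP-DSCs, replicate 1 was the lowest for 9 of 13. The median log2 fold change of the class moved with single libraries: it was 0.28 without DP-DSCs replicate 1, 1.06 without DP-DSCs replicate 2 and 0.28 without TP-DSCs replicate 2. The transport median was 0.16 without DP-DSCs replicate 3. The library names begin with 3840 for replicate 1 of each group and with 4140 for the rest, and the labels do not say what the number marks. Within 3840 the median TP-DSCs minus DP-DSCs difference in log2 CPM was 0.91 over the mitotic and 0.03 over the transport kinesins. Within 4140 it was 0.60 and 0.30 in the same order.

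Single genes also differed between the prefixes. Kif4 had differences in log2 CPM of 1.63 within 3840 and 1.46 within 4140, and Kif11 of 1.28 and 1.29. Kif15 had 1.22 and 1.90, and Kif20b 0.77 and 2.003. Kif20a had 1.03 and -0.26, and Kif22 had 0.90 and -0.21, so these 2 genes changed sign between prefixes. Each prefix 3840 value rests on 1 library a group.

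The make-up of the mitotic class was read as the share of each role in its summed CPM. The pole-separating pair Kif11 and Kif15 made up 14.9, 12.6 and 13.7% of the mitotic sum in DP-DSCs and 18.0, 25.7 and 20.4% in TP-DSCs. The minus-end pair Kifc1 and Kifc5b made up 16.7, 16.2 and 15.4% in DP-DSCs and 13.3, 12.97 and 12.1% in TP-DSCs. The length regulators Kif2c, Kif18a and Kif18b made up 12.2, 12.8 and 12.9% in DP-DSCs and 9.92, 11.7 and 9.77% in TP-DSCs. These 3 of the 5 mitotic roles did not overlap between groups, while the cytokinesis and chromosome-arm shares did. The roles were not among the planned comparisons, and the share over other gene groups was not computed. Kif11 and Kif15 were already among the mitotic kinesins with the largest log2 fold changes. The length regulators include Kif18a, with 0 reads in TP-DSCs replicate 3. The 5 shares sum to the whole, so they are not independent, and 3 libraries against 3 cannot give an exact two-sided permutation p below 0.1. None of the 4 transport role shares separated the groups.

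Of 6 ratios between related members, 2 separated the groups. The pairs were set after values of these genes had been seen, and the share over other gene pairs was not computed. Kif4 already did not overlap between groups, and Kif3c and Kif3a had the highest and lowest log2 fold changes of the transport class. Separation of these ratios therefore adds no independent support. Kif22 over Kif4 was 1.38, 1.71 and 1.61 in DP-DSCs and 0.829, 1.06 and 0.254 in TP-DSCs. Kif3c over Kif3a was 0.364, 0.387 and 0.807 in DP-DSCs and 1.06, 1.503 and 1.10 in TP-DSCs. The ratios Kif20a over Kif20b, Kif15 over Kif11, Kif5c over Kif5b and Kif1b over Kif1c overlapped.

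Mki67, the Ki-67 antigen of cycling cells, stood at 128.8, 135.8 and 102.8 CPM in DP-DSCs and at 244.1, 368.5 and 304.7 CPM in TP-DSCs. Relative to Mki67, the mitotic kinesin sum was 1.29, 3.42 and 2.44 in DP-DSCs and 1.33, 1.75 and 1.72 in TP-DSCs. On that scale the groups overlapped, and the highest values were those of DP-DSCs replicates 2 and 3. The ratio of Kif11 to Mki67 had means of 0.225 ± 0.0785 and 0.222 ± 0.0766 in DP-DSCs and TP-DSCs (SD, n = 3 per group). For Kif20b these means were 0.120 ± 0.0155 and 0.155 ± 0.0592, and for Kif4 0.156 ± 0.0629 and 0.174 ± 0.0455, so all 3 differed by less than the larger SD. Kif20a over Mki67 was 0.193, 0.650 and 0.416 in DP-DSCs and 0.204, 0.102 and 0.241 in TP-DSCs, with overlap.

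A list of 15 genes that work with mitotic kinesins was chosen with earlier results of these data known. All 15 lay above 0, beside 5752 of 11925 tested genes, with a median log2 fold change of 0.70. Of these, 4 had an unadjusted p under 0.05 in edgeR, beside 1.43% of all tested genes, and 0 passed the adjusted threshold. DESeq2 on the same genes called 1 of the 15, Cenpe, beside 0.0605% of genes called higher. Cenpe, itself a kinesin of the kinetochore whose symbol escapes the member rule, stood at 18.5, 29.8 and 20.7 CPM in DP-DSCs and at 64.3, 55.2 and 104.6 CPM in TP-DSCs. Its log2 fold change was 1.69 ± 0.32 (SE), with an adjusted p of 0.121 in edgeR and 0.00338 in DESeq2. Nusap1, which bundles spindle microtubules, stood at 14.7, 25.0 and 23.4 CPM in DP-DSCs and at 38.8, 56.4 and 76.9 CPM in TP-DSCs. Cenpe and Nusap1 did not overlap between groups, 2 of the 15 beside 3.87% of all tested genes. Ect2, the exchange factor that centralspindlin recruits for cytokinesis, had a log2 fold change of 1.03 ± 0.36 (SE; edgeR adjusted p = 0.520), with overlapping libraries.

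Among transport kinesins, the kinesin-1 heavy chains were led by Kif5b at 369.9, 355.2 and 309.5 CPM in DP-DSCs and 348.6, 475.3 and 416.1 CPM in TP-DSCs. These overlapped, with a log2 fold change of 0.24 ± 0.18 (SE). Kif5c, best known from neurons, was at 54.8, 73.2 and 73.3 CPM in DP-DSCs and at 109.5, 94.0 and 89.4 CPM in TP-DSCs, without overlap. Its log2 fold change was 0.54 ± 0.22 (SE; edgeR adjusted p = 0.742). The difference in log2 CPM of Kif5c was 1.03 within prefix 3840 and 0.28 within prefix 4140. The third heavy chain, Kif5a, had reads in DP-DSCs only, at no more than 0.276 CPM. Summed markers of nerve cells were at most 1.53 CPM in DP-DSCs. In TP-DSCs they were 0 in replicates 1 and 2 and 13.4 CPM in replicate 3, all of it Tubb3. Of the 4 markers, 2 were at 0 in every library. Their part in the Kif5c value was not tested.

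The kinesin-3 family carries vesicles and organelles toward the cell edge. Kif1c was at 336.7, 436.1 and 306.2 CPM in DP-DSCs and at 383.4, 341.3 and 367.9 CPM in TP-DSCs, with a log2 fold change of 0.02 ± 0.19 (SE). Kif1b, a carrier of mitochondria and vesicles, was at 115.7, 102.7 and 90.7 CPM in DP-DSCs and at 110.7, 128.9 and 112.4 CPM in TP-DSCs. Both genes overlapped between groups. Kif13a, which moves recycling endosomes, was at 48.5, 41.8 and 32.4 CPM in DP-DSCs and at 28.1, 38.9 and 98.9 CPM in TP-DSCs. Kif16b, which moves early endosomes, was at 55.8, 38.6 and 35.0 CPM in DP-DSCs and at 53.5, 22.5 and 52.8 CPM in TP-DSCs. For Kif13a, TP-DSCs held both the lowest and the highest library, and for Kif16b the lowest was TP-DSCs replicate 2 and the highest DP-DSCs replicate 1.

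Kinesin-2 motors drive transport inside cilia and carry vesicles in the cell body. Kif3b was at 51.0, 70.0 and 57.1 CPM in DP-DSCs and at 57.7, 79.0 and 80.7 CPM in TP-DSCs, with overlap. Kif3a, its partner in the heterotrimeric motor, was at 27.4, 29.1 and 25.5 CPM in DP-DSCs and at 16.7, 18.6 and 37.4 CPM in TP-DSCs. Kif3c, which can also pair with Kif3a, was at 9.97, 11.3 and 20.6 CPM in DP-DSCs and at 17.8, 27.9 and 41.1 CPM in TP-DSCs. TP-DSCs replicate 1 lay below DP-DSCs replicate 3, and the log2 fold change of Kif3c was 1.01 ± 0.52 (SE; edgeR adjusted p = 0.999), the largest of the 13 transport members. Of the exon bases of Kif3c 40.7% overlap other genes, among them 1110002L01Rik on the opposite strand. That gene stood at 11.4, 14.0 and 15.4 CPM in DP-DSCs and at 4.61, 1.47 and 3.35 CPM in TP-DSCs. The strand setting of the counting is not given in the sources used here, so reads of these neighbours may be mixed.

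Kifc3 was at 95.8, 103.5 and 109.2 CPM in DP-DSCs and at 105.9, 158.1 and 112.1 CPM in TP-DSCs. The log2 fold change was 0.26 ± 0.20 (SE), and the groups overlapped. Of the 3 transport members not yet described by value, Kif13b, Kif1a and Kifc2, the log2 fold changes were 0.29, 0.74 and 0.22, all with overlapping libraries. Each of the 3 changed sign under some alternative, with ranges from -0.07 to 0.64, from -0.09 to 1.39 and from -0.11 to 1.02. Kif17, a kinesin of cilia and dendrites below the 1 CPM threshold, was at 0.920, 1.22 and 2.44 CPM in DP-DSCs and had no read in TP-DSCs. Its DP-DSCs mean was 37.2 times the CPM that 3 counts over the TP-DSCs libraries together would give. The edgeR adjusted p was 0.121, and the adjusted p ran from 0.0197 to 0.658 over all alternatives. Lower genes with an unadjusted p under 0.05 made up 4.67% of all tested genes. Of genes with 1 to 2 CPM in DP-DSCs, 72.8 to 78.6% had no read in a TP-DSCs library. Absence of reads at this level was thus common in TP-DSCs, and the value of 37.2 sets no lower bound on a fold change.

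**Figure D4:**
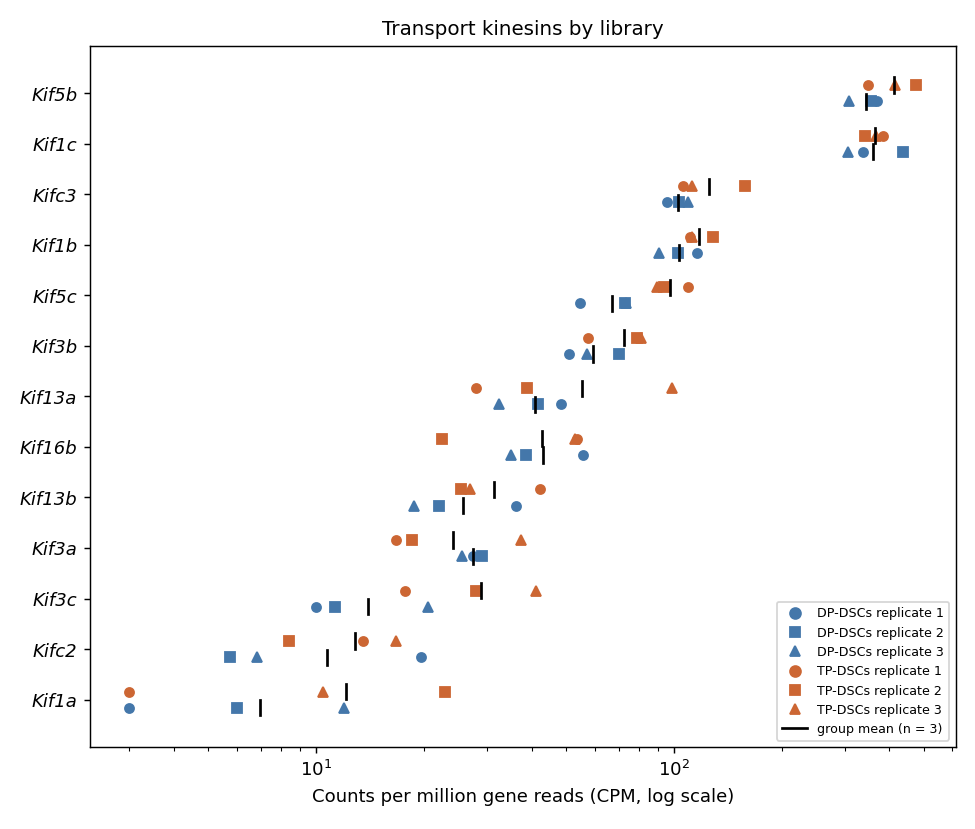
CPM (log axis) of the 13 transport kinesins in each library, with group means (n = 3). Kif5c is the member whose TP-DSCs libraries (89.4 to 109.5 CPM) all lie above its DP-DSCs libraries (54.8 to 73.3 CPM).

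Of 11 light chain and adaptor genes, 10 were tested, 6 lay above 0 with a median of 0.12, and 1 was higher at an unadjusted p under 0.05, beside 1.43% of all tested genes. That was Trak1, which links kinesin-1 to mitochondria, at 109.6, 86.0 and 71.7 CPM in DP-DSCs and 126.3, 136.9 and 152.0 CPM in TP-DSCs. Its groups did not overlap, and the log2 fold change was 0.61 ± 0.22 (SE; edgeR adjusted p = 0.569). Trak2, its close relative, was at 74.2, 80.3 and 75.0 CPM in DP-DSCs and at 86.9, 99.5 and 103.4 CPM in TP-DSCs, also without overlap. These were 2 of the 10 tested adaptors, beside 3.87% of all tested genes that were higher without overlap. Klc3, a light chain, had a log2 fold change of -0.61 ± 0.36 (SE; edgeR adjusted p = 0.999).

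Cytoplasmic dynein and dynactin move cargo the opposite way along microtubules. Of 20 genes of this complex and its regulators 8 lay above 0, with a median log2 fold change of -0.04, and 0 had an unadjusted p under 0.05 in edgeR, beside 1.43% of all tested genes higher and 4.67% lower. The smallest p among them were those of Dctn6 (log2 fold change -0.32 ± 0.26), Dynlt3 (0.26 ± 0.22) and Dctn4 (-0.26 ± 0.25; SE). The groups did not overlap, with TP-DSCs lower, for Dctn6 alone of the 20, beside 8.56% of all tested genes.

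Of the 9 other kinesins 5 lay above 0, their median was 0.35 on the log2 scale, and 0 reached an unadjusted p of 0.05 in edgeR, beside 1.43% of all tested genes higher and 4.67% lower. Kif12, expressed in kidney and bile duct epithelium, was at 46.9, 64.1 and 39.6 CPM in DP-DSCs and at 57.3, 91.5 and 62.8 CPM in TP-DSCs. Kif2a, a depolymerase of spindle poles and neurons, was at 38.4, 44.4 and 30.9 CPM in DP-DSCs and at 33.4, 49.2 and 31.5 CPM in TP-DSCs. Both overlapped, with log2 fold changes of 0.48 ± 0.26 for Kif12 and -0.01 ± 0.30 for Kif2a (SE).

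Kif21a, which halts microtubule growth at the cell cortex, was at 32.6, 22.0 and 31.7 CPM in DP-DSCs and at 37.4, 28.4 and 46.1 CPM in TP-DSCs. Kif19a, which controls the length of motile cilia, was at 21.4, 5.23 and 27.8 CPM in DP-DSCs and at 35.7, 45.8 and 13.7 CPM in TP-DSCs. Libraries of the same group differed more than the group means for Kif19a. Markers of ciliated cells summed to 1.41 to 1.84 CPM in DP-DSCs and to 0 in TP-DSCs. No single marker exceeded 1.41 CPM. Among genes with 0.5 to 1 CPM in DP-DSCs, 83.4 to 88.4% had no read in a TP-DSCs library, so a value of 0 is common at this level. Kif9, a kinesin of motile cilia, was at 5.22, 6.67 and 4.55 CPM in DP-DSCs and at 0, 0 and 3.54 CPM in TP-DSCs. Its groups did not overlap, beside 8.56% of all tested genes that were lower without overlap, and its log2 fold change was -2.28 ± 2.21 (SE; edgeR adjusted p = 0.999). Among genes with 4 to 8 CPM in DP-DSCs, 24.4 to 38% had no read in a TP-DSCs library. Kif7, a regulator of Hedgehog signalling, was at 1.84, 0.765 and 2.63 CPM in DP-DSCs and at 0, 0 and 11.5 CPM in TP-DSCs, and 20.3% of its exon bases overlap other genes such as Ticrr. The log2 fold change of Kif7 was 1.03 ± 2.39 (SE; edgeR adjusted p = 0.999), with all TP-DSCs reads in replicate 3. It changed sign over the alternatives, from -8.57 to 1.67. Kif21b, Kif24 and Kif26b, the last 3 of the class, overlapped between groups with log2 fold changes of 0.55, -0.21 and -0.63. Over the alternatives Kif24 ran from -0.68 to 0.04 and Kif26b from -1.62 to 0.15, so both changed sign. The class median was 0.13 with the library-name prefix as a block, 0.15 without DP-DSCs replicate 2 and 0.13 without TP-DSCs replicate 3.

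Gene reads per library ran from 27027919 to 32671039 in DP-DSCs and from 17015581 to 31068454 in TP-DSCs. Genes with a read numbered 12504 to 14434 in DP-DSCs and 10571 to 10982 in TP-DSCs. Epithelial markers summed to 6773 to 8106 CPM in DP-DSCs against 6343 to 7491 CPM in TP-DSCs. Fibroblast markers reached 3.19 CPM, and leukocyte and endothelial markers 1.15 CPM, at most in any library.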

How the data were processed

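The labels describe polyadenylated RNA of 6 samples, prepared with a stranded kit. Deposited files hold whole-number read counts per gene symbol, and each library's 2 rows for reads in no gene (14.1 to 20.3% of reads) and ambiguous reads (1.09 to 1.86%) were left out. The submitters' processing notes list build mm10, STAR 2.7.3a, Partek and DESeq2 3.5. What each tool did, and the strand setting, is not given in the sources used here. The cell subtype label gave the groups, and replicates were numbered in accession order, which pairs nothing. No 2 replicates agreed within sampling noise (chi-square per degree of freedom from 112.2 to 306.1).

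CPM are counts over the library's gene reads. Tests used edgeR 4.0.16 in R 4.3.3 on the whole table: filterByExpr (minimum count 10, total 15), TMM factors, the two-sided quasi-likelihood F test with group alone, and Benjamini-Hochberg adjustment. The SE is the log2 fold change over the square root of F. Differences within a library-name prefix compare mean log2 CPM (prior count 2). The code was tested on simulated data. Alternatives were other scalings, DESeq2 1.42.0, no filter, the library-name prefix as a block or 4140 alone, other class assignments, a mean of 5 CPM and leaving out each library. The DESeq2 settings on other gene sets or with a local trend, members with reads in all 6 libraries, and the class without Kifc5b were added after seeing the data.

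The members and lists were chosen with earlier results of these data known. Named with library values were all mitotic members of 1 CPM or more, the 8 most abundant transport and 4 other members, any member with an unadjusted p under 0.05, and up to 3 partner genes per list by p. Kif3a, Kif3c, Kif7, Kif9, Kif13b, Kif1a, Kifc2, Mki67 and the overlapping neighbours were added after their values were seen. Promoter windows came from RefSeq, gene lengths and overlaps from the GRCm38 annotation. A planned protein motif was not analysed here, and 1 overlapping neighbour is not reported here.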

Additional observations from a re-analysis of the deposited data

How the results depend on the processing

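edgeR called 0 of all genes and 0 kinesins under every scaling, with no filter, with the prefix as a block, within 4140 alone and without any 1 library. DESeq2 called 93 genes on the genes edgeR tested, 267 on every gene with a read and 101 at a mean count of 10, and with a local trend 492, 208 and 461 on the same sets. Of the 35 kinesins it called 2 on every gene with a read, with or without a local trend, and 4 on the other sets with a local trend. Those at an unadjusted p under 0.05 numbered 5, and 2 to 6 with 1 library left out: 2 without DP-DSCs replicate 1 or replicate 3, and 3 without TP-DSCs replicate 2. The 6 without TP-DSCs replicate 3 included Kif7 and Kif9, which were lower in TP-DSCs in that fit, and not Kif15. The mitotic median ran from 0.28 to 1.06 and the transport median from 0.16 to 0.30 with 1 library left out. Every alternative, these included, moved either median by less than its spread between replicates (0.591 for mitotic and 0.128 for transport kinesins). The mitotic median itself, 0.59, was no larger than its spread. Staying within that spread therefore does not show that the mitotic median is stable. Without DP-DSCs replicate 3 the transport median was 0.16 in place of 0.26. The median of all genes shifted by -0.14 with no filter.

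Of the 25 kinesins taken by the naming rule, 18 kept their sign under all 18 alternative fits. Kif18a, at -0.00 in edgeR, was 0.0076 with DESeq2 size factors. In DESeq2 it was 0.0077, 0.0079 and 0.0078 on the tested genes, on every gene with a read and at a mean count of 10, and 0.0076, 0.0077 and 0.0077 on these sets with a local trend. In the same order Kif16b was 0.0016, then 0.0015, 0.0017 and 0.0016, then 0.0018, 0.0019 and 0.0019. Kif2a was 0.012, then 0.012, 0.011 and 0.012, then 0.011, 0.011 and 0.011, and it was 0.0054 by library size alone. Within 4140 alone Kif20a was -0.28, Kif22 -0.011, Kif1c -0.12 and Kif2a 0.048. Kif1c was -0.0088 with upper-quartile factors and -0.0089 with no filter. With 1 library left out the log2 fold change ran from -0.63 to 0.58 for Kif18a, from -0.28 to 0.61 for Kif20a, from -0.37 to 0.65 for Kif22, from -0.10 to 0.12 for Kif1c, from -0.29 to 0.66 for Kif13a, from -0.29 to 0.30 for Kif16b and from -0.20 to 0.13 for Kif2a. Without TP-DSCs replicate 2, Kif5b was 0.15, Kifc3 0.10 and Kif12 0.28. The cause was not tested. The labels give no replicate numbers, so the library-name prefix was the only block that could be fitted. Differences in genes under about 8 CPM are limited by the share of genes without reads in TP-DSCs.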
